A study of Mus musculus with 2 samples.

Results

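Peroxisomes are single-membrane organelles that shorten very long-chain and branched fatty acids, make the first steps of ether lipids and break down the hydrogen peroxide that their oxidases release. Their proteins are made in the cytosol and imported by peroxins, the products of the Pex genes, and fatty acids enter as coenzyme A esters through ABC transporters of the Abcd family. Bezafibrate, a fibrate given to lower blood lipids, is an agonist of peroxisome proliferator-activated receptors (PPARs). These take their name from the growth of peroxisomes that fibrates cause in rodent liver. PPARs bind DNA with retinoid X receptors at direct repeats of a short motif, and in rodent liver genes such as Ehhadh, Acaa1b, Pex11a and Cat are among those they control.

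The genes described here are the peroxin genes, found as every gene symbol that starts with Pex and a digit, together with transporters and enzymes of peroxisomal oxidation that were listed by name. The name rule found 14 Pex genes and the list added 16 others, for 30 genes, of which 29 had a value from a probe set that names 1 gene only, among 22180 named genes with a value. Acot8, a thioesterase that releases fatty acids from coenzyme A, had no probe set of its own, since the one that reads it names Snx21 as well. The study has 2 arrays of mouse CD8+ T cells, 1 of a culture with bezafibrate and 1 of a control culture with the solvent dimethyl sulfoxide (DMSO). Bezafibrate was present at 30 µM for the whole culture. In both cultures naive cells had been activated with beads carrying antibodies to CD3 and CD28 and given interleukin-2 at 100 U/mL, and the cells were expanded to day 13. The labels give neither strain, age, sex nor the number of animals. A single array stands for each culture, so no value has a replicate error or a p-value, and each ratio describes these arrays.

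All values are log2 signals as deposited, and each ratio is the bezafibrate value minus the DMSO value on that scale. The signal of silent genes was taken from 1394 genes of olfactory and vomeronasal receptors, and a level under their 95th percentile, 4.68 with bezafibrate and 4.71 with DMSO, is called within background. The floor was the median of all named genes on an array, 4.85 with bezafibrate and 4.88 with DMSO, and a gene lay above it when the brighter of its arrays did. Of the 29 genes 26 lay above the floor, and the other 3, Pex5l, Pex11a and Abcd2, were within background on both arrays. Levels of different genes come from different probes and are not set against each other.

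The identity of the cells matched their label. All 8 CD8+ T cell markers read (Cd8a, Cd8b1, Cd3d, Cd3e, Cd3g, Cd2, Cd5 and Thy1) were above the floor, with a median log2 ratio of −0.16 and a range of −0.30 to −0.06. Cd4 was within background on both arrays. Among B cell markers Cd79a and Ms4a1 were within background and Cd79b had levels of 4.85 with bezafibrate and 5.41 with DMSO. The macrophage markers Lyz2 and Adgre1 and the natural killer cell markers Ncr1 and Klrb1c were within background, while Csf1r read just above it at 4.80 and 4.73, Cd68 at 6.92 and 6.91, and Eomes, which activated CD8+ T cells also express, at 10.59 and 10.56 (bezafibrate and DMSO in each pair). The lower CD8+ T cell markers are of the same size as many of the ratios below, and their part in those ratios was not tested.

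Peroxisomal genes as a whole were close to level between the cultures. Of the 29 genes 12 were higher with bezafibrate and 17 lower. Their median log2 ratio was −0.04, against a median of 0 over all named genes, where 44.7% had a ratio above 0 and 50% one below. The largest increase, in Ehhadh, was 1.19-fold. The lowest ratios were those of Amacr, Phyh, Pex16 and Abcd2, the 4 genes lower by a log2 difference of at least 0.32. By this limit 9.06% of all named genes were lower and 7.33% higher, and none of the 29 was higher, so the count of 4 of 29 is near the background. At 1.5-fold Amacr alone was lower and none higher, beside 1.24% of all named genes lower, 1.28% higher and 2.53% in either direction. Of the 26 genes above the floor 11 were higher and 15 lower, and their median was −0.04. Among all 11446 genes above the floor 48.4% had a ratio above 0 and 49.6% one below, 5.83% were higher and 6.33% lower by a log2 difference of 0.32, and 0.664% were higher and 0.524% lower at 1.5-fold.

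**Figure D1:**
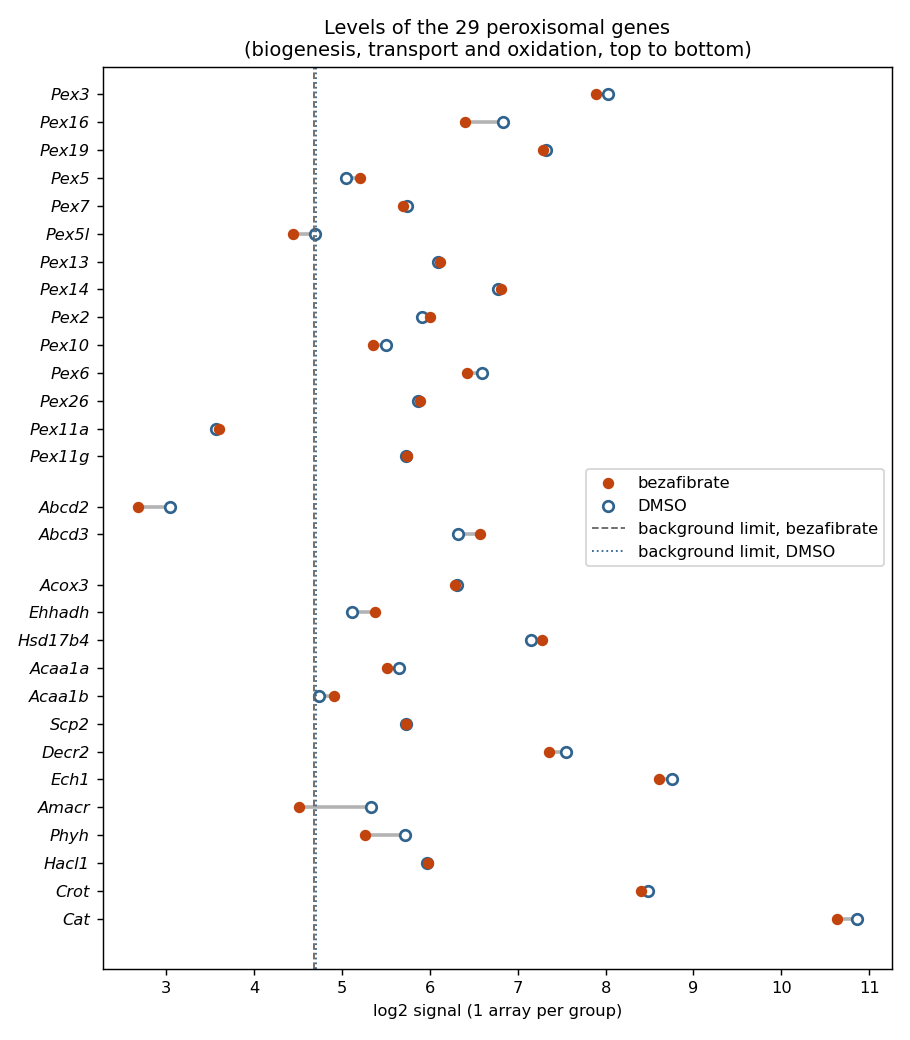
Log2 signal of the 29 genes on the bezafibrate array (filled red) and the DMSO array (open blue), 1 array each, ordered by role from biogenesis at the top through transport to oxidation. The vertical lines mark the background limits of 4.68 (bezafibrate, dashed) and 4.71 (DMSO, dotted); most pairs of points nearly coincide, and the widest gap is that of Amacr, whose bezafibrate level lies under the limit.

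Since PPARs act at promoters, the sequence before the gene start was searched for their element, a direct repeat of AGGTCA with any single base between the copies, and for a lone copy of AGGTCA, on both strands. RefSeq promoters of assembly GRCm38.p6, which run from 250 bases before to 50 bases after a gene start, matched 23 of the 29 genes with 27 promoters. None held the full repeat, and 0.0396% of all 32851 promoters did. AGGTCA alone, which every full repeat also contains, was in 4 of the 27 (14.8%), those of Cat, Pex11g, Phyh and Scp2, and in 16.3% of all promoters. A window with at most 2 of the 12 set bases unmatched was found in 1 of the 27 promoters (3.7%), that of Cat, and in 3.86% of all promoters. The 250 bases before the start of Cat are shown because they hold this window, and those of Ehhadh because it had the highest ratio, with the window closest to the repeat in capitals and each read in the direction of its gene.
Cat (chr2:103485154-103485403, GRCm38.p6, minus strand): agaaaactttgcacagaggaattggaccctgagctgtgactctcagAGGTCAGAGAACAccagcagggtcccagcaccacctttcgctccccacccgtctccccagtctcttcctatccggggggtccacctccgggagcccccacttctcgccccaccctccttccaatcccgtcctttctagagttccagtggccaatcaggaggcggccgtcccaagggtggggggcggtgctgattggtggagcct
Ehhadh (chr16:21787835-21788084, GRCm38.p6, minus strand): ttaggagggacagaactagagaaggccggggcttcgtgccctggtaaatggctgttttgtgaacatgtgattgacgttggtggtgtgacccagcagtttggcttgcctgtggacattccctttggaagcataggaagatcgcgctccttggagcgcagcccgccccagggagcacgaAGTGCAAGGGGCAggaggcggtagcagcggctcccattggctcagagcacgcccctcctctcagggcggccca

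The windows closest to the repeat are set side by side below for the genes with a promoter at either end of the ratios (Ehhadh, Abcd3, Pex16 and Phyh), for the thiolase copies, for Cat and for the Pex11 genes. Each is read in the direction of the repeat, with bases that match it in capitals. The window of Cat starts 204 bases before the gene start and matched 10 of 12 set bases, those of Pex11g and Phyh matched 9, those of Ehhadh, Abcd3, Pex16 and Acaa1b matched 8, and those of Acaa1a and Pex11a matched 7. Pex16 has another promoter, not shown, whose closest window matched 7. Of all promoters 79.8% held a window with at most 4 unmatched bases, so a match of 8 is common. The Phyh and Abcd3 windows lie after the gene start and the others before it. A match in letters is not evidence of binding, and windows farther from the gene start were not searched.
Cat (chr2:103485345-103485357, minus strand): AGGTCAgAGaaCA
Pex11g (chr8:3467712-3467724, minus strand): cGGaCAaAGGgCA
Phyh (chr2:4919025-4919037, minus strand): AGGTCAcActTaA
Ehhadh (chr16:21787895-21787907, minus strand): AGtgCAagGGgCA
Abcd3, promoter 1 (chr3:121814889-121814901, minus strand): gGGcCAgcGGTCc
Abcd3, promoter 2 (chr3:121815281-121815293, minus strand): AaGcCAaAGtcCA
Pex16 (chr2:92375114-92375126, minus strand): AaGgCAcAGGgaA
Acaa1b (chr9:119157264-119157276, plus strand): AaGTtcaAGGcCA
Acaa1a (chr9:119341047-119341059, plus strand): gaGgCtgAGtTCA
Pex11a (chr7:79743331-79743343, plus strand): AGGctgcAGGcCg

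Among biogenesis genes 7 were higher and 7 lower. Their median log2 ratio was −0.02 and their range ran from −0.43 to 0.15. The lowest was Pex16, one of the peroxins that insert membrane proteins. Pex16, a membrane protein that recruits Pex3, had a level of 6.40 with bezafibrate and 6.83 with DMSO, 1.35-fold lower, and 2.26% of genes above the floor had a lower ratio. Pex3, the membrane anchor for Pex19, had 7.89 with bezafibrate and 8.03 with DMSO, a ratio of −0.14. Pex19, the cytosolic carrier of newly made membrane proteins, had 7.28 and 7.33 on the same 2 arrays, a ratio of −0.04. All 3 genes of membrane protein insertion had ratios below 0, as had 49.6% of all genes above the floor. With the length and level trend described below taken off, Pex19 had 0.04. The ratio of Pex16 alone lay outside −0.42 to 0.41, the central 95% of genes above the floor. In bulk RNA a lower level in some cells and a loss of cells that express the gene cannot be told apart.

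The import receptors showed no common direction. Pex5, which carries enzymes with the C-terminal targeting signal, had 5.20 with bezafibrate and 5.05 with DMSO, and its ratio of 0.15 was the highest of the biogenesis genes. Pex7, the receptor for the N-terminal signal, had 5.70 with bezafibrate and 5.75 with DMSO. Pex5l, a relative of Pex5 known mainly from brain, was within background at 4.45 and 4.70. For the docking complex, where loaded receptors reach the membrane, the differences were smaller still, with Pex13 at 6.12 with bezafibrate and 6.09 with DMSO, and Pex14 at 6.81 and 6.78.

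Of the ubiquitin ligase subunits that mark receptors for recycling, Pex2 had 6.00 with bezafibrate and 5.91 with DMSO, and Pex10 had 5.35 and 5.51, ratios of 0.09 and −0.15 in opposite directions. Pex6, an ATPase that pulls the marked receptors out of the membrane, had 6.42 with bezafibrate and 6.60 with DMSO, a ratio of −0.18. Pex26, its membrane anchor, had 5.89 and 5.86. The division factors are of interest because Pex11a is induced by fibrates in rodent liver. Pex11a was within background in both cultures, at 3.60 with bezafibrate and 3.57 with DMSO, so its ratio of 0.03 says nothing on its regulation. Pex11g, a second member of the family, had 5.75 with bezafibrate and 5.73 with DMSO, a ratio of 0.01.

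The transporters differed in whether they could be read. Abcd3, which encodes the abundant membrane protein PMP70 that imports branched and dicarboxylic acyl-CoA, had 6.57 with bezafibrate and 6.32 with DMSO. This is 1.19-fold higher, and 89.1% of genes above the floor had a lower ratio. Abcd2, a transporter of very long-chain acyl-CoA, had 2.68 with bezafibrate and 3.05 with DMSO, both within background, so its ratio of −0.36 is that of a signal near background. Of the receptor genes that gave the background, 16.4% were lower by the log2 difference of 0.32 that Abcd2 also passed.

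**Figure D2:**
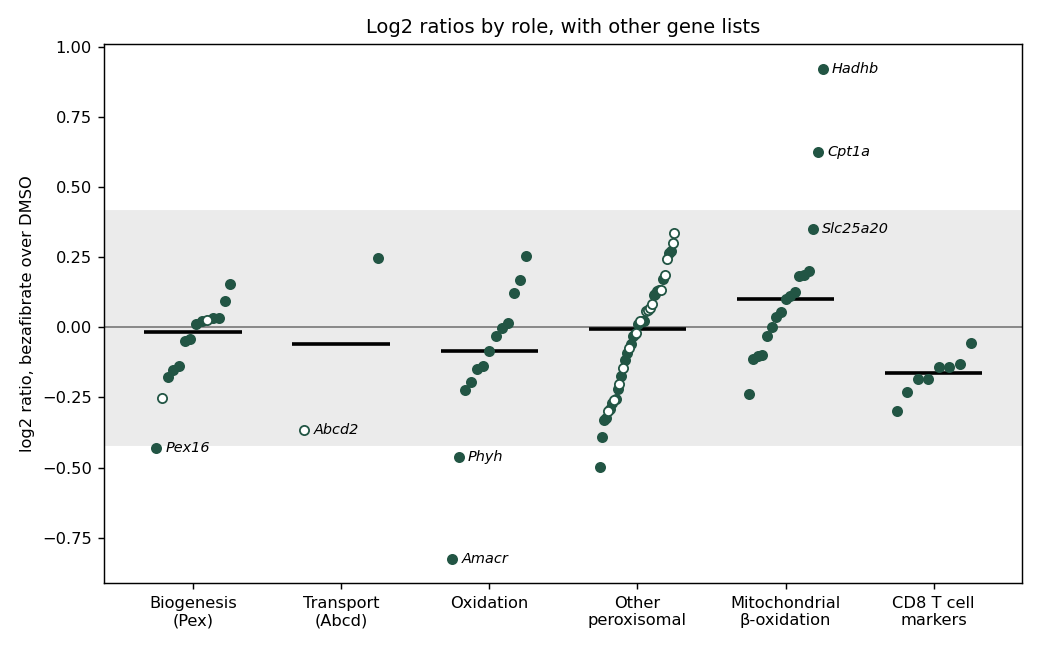
Log2 ratio of bezafibrate over DMSO for each gene of the 3 roles and of other peroxisomal, mitochondrial β-oxidation and CD8 T cell marker lists, with genes above the floor filled, those below it open, and the median of each group as a bar. The grey band holds the central 95% of all genes above the floor, −0.42 to 0.41; Amacr, Phyh, Pex16 and, among the other peroxisomal genes, Mff lie below it and no peroxisomal gene lies above it, while Hadhb and Cpt1a of the mitochondrial list do. Names are given, in the 3 roles and the mitochondrial list, for genes that differ by at least 0.32.

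Of 13 oxidation genes read, 4 were higher with bezafibrate and 9 lower, where 48.4% of all genes above the floor were higher and 49.6% lower. Their median log2 ratio was −0.08, against 0 for all genes above the floor. With 1 array per group this difference was not tested. The range ran from −0.83 to 0.26, and all 13 lay above the floor. Acaa1b passed it only through its bezafibrate array. The core enzymes of the β-oxidation spiral were 3 higher and 3 lower with a median of 0.06, which became −0.0047 with the length and level trend described below taken off.

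Ehhadh, the bifunctional enzyme of the classical inducible pathway, had 5.37 with bezafibrate and 5.12 with DMSO, 1.19-fold higher, and 89.7% of genes above the floor had a lower ratio. Hsd17b4, the bifunctional enzyme that acts on branched acyl-CoA and bile acid precursors, had 7.27 with bezafibrate and 7.15 with DMSO, a ratio of 0.12. With the length and level trend taken off, Ehhadh had 0.29 and Hsd17b4, a long gene, 0.03. Acox3, an oxidase of branched acyl-CoA, had 6.28 with bezafibrate and 6.31 with DMSO, a ratio of −0.03, and a second probe set that also names a predicted gene had −0.20. The thiolases that close the spiral went in different directions. Acaa1a had 5.51 with bezafibrate and 5.65 with DMSO, a ratio of −0.14. Acaa1b had 4.92 with bezafibrate and 4.75 with DMSO, a ratio of 0.17 close to background. Acaa1a and Acaa1b are near-identical copies that can share hybridisation signal, so a split between them is uncertain. Scp2, whose gene encodes a thiolase for branched chains and a sterol carrier protein, had 5.73 on both arrays.

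The 3 auxiliary enzymes, which rearrange double bonds or side chains before an acyl-CoA can enter the spiral, were all lower. Of all genes above the floor 49.6% had a ratio below 0. Amacr, a racemase that turns branched acyl-CoA and bile acid precursors into the isomer that oxidases accept, had 4.51 with bezafibrate and 5.33 with DMSO. As the bezafibrate level lay within background, the fold is a bound, and it takes the single DMSO reading as exact. Bezafibrate was at least 1.58-fold lower when its level is set at the background limit. The measured difference of −0.83 on the log2 scale was the lowest of the 29 genes, and the gene passed the floor only through its DMSO array. Of the receptor genes that gave the background, 8.54% differed by at least 1.5-fold in either direction. Decr2, a reductase of polyunsaturated acyl-CoA, had 7.36 with bezafibrate and 7.56 with DMSO, a ratio of −0.19. Ech1, an isomerase of the same route found in peroxisomes and mitochondria, had 8.61 with bezafibrate and 8.75 with DMSO, a ratio of −0.15. With the length and level trend described below taken off, Decr2 had −0.12 and Ech1 −0.06.

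For α-oxidation, which removes a single carbon from phytanic acid so that β-oxidation can begin, the 2 enzymes did not go together. Phyh, the hydroxylase of the first step, had 5.26 with bezafibrate and 5.72 with DMSO, 1.38-fold lower, and 1.63% of genes above the floor had a lower ratio. Its second probe set, within background, had 3.73 on both arrays. Hacl1, the lyase that follows, had 5.98 with bezafibrate and 5.96 with DMSO, while probe sets that also name Btd or Colq had ratios of −0.11 and −0.04. Products leave the peroxisome as carnitine esters or free acids. Crot, the octanoyltransferase that makes the carnitine esters, had 8.40 with bezafibrate and 8.49 with DMSO, a ratio of −0.08. The probe set shared by Acot8 and Snx21 had 6.82 on both arrays.

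Cat encodes catalase, which breaks down hydrogen peroxide in the peroxisome. It had 10.63 with bezafibrate and 10.86 with DMSO, 1.17-fold lower, and 13.8% of genes above the floor had a lower ratio. Its ratio lay inside the central 95% of genes above the floor. Its promoter held the window closest to the PPAR element among these genes, and 3.86% of all promoters held one at most 2 bases off. A link between window and ratio was not tested.

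Other genes of the organelle, from a list of 44 that excluded those above, gave 40 values, 20 of them higher and 20 lower, and their median log2 ratio was −0.0045. Of all named genes 44.7% had a ratio above 0 and 50% one below. Of the 24 above the floor 10 were higher and 14 lower, and their median was −0.04. Among all genes above the floor 48.4% had a ratio above 0 and 49.6% one below. By a log2 difference of at least 0.32, 4 of the 24 were lower and 0 higher. The shares of all genes above the floor were 6.33% lower and 5.83% higher. Mff, an adaptor that recruits the fission GTPase to peroxisomes and mitochondria, had 7.97 with bezafibrate and 8.47 with DMSO, 1.41-fold lower. The GTPase gene Dnm1l and the adaptor gene Fis1 had ratios of 0.17 and −0.06. Pxmp4, a peroxisomal membrane protein, had 7.20 with bezafibrate and 7.59 with DMSO, a ratio of −0.39. Eci2, an enoyl-CoA isomerase, had 6.91 with bezafibrate and 7.24 with DMSO, and Dhrs4, a carbonyl reductase, had 6.83 and 7.15. Of the 4 genes of ether lipid synthesis, Agps had a ratio of 0.27, Far1 0.12, Gnpat 0.02 and Far2, within background, 0.07, where 44.7% of all named genes had a ratio above 0. With the length and level trend described below taken off, Agps had 0.17, Far1 0.02 and Gnpat −0.0079. Oxidases best known from liver and kidney, namely Acox2, Dao, Ddo, Hao1, Hao2 and Uox, were within background on both arrays, as were the hepatocyte markers Alb and Ttr. Apoa1, another hepatocyte marker, read above the floor at 5.19 with bezafibrate and 5.14 with DMSO. Pipox, another peroxisomal oxidase, was above background with DMSO only, at 4.61 with bezafibrate and 4.81 with DMSO.

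Mitochondria shorten most fatty acids in the cell, and more of their β-oxidation genes were higher than lower with bezafibrate, the opposite of the peroxisomal count. The 13 peroxisomal oxidation genes had a median log2 ratio of −0.08, against 0.10 for 17 mitochondrial genes, of which 11 were higher, 5 lower and Acadm equal. By a log2 difference of at least 0.32, 0 peroxisomal oxidation genes were higher and 2 lower, Phyh and Amacr, the second of them within background with bezafibrate. By the same limit 3 mitochondrial genes were higher and 0 lower, and 5.83% of all genes above the floor were higher and 6.33% lower. The 3 were Hadhb, a subunit of the trifunctional protein, with 5.88 with bezafibrate and 4.96 with DMSO, Cpt1a with 9.02 and 8.39, and Slc25a20, the carnitine carrier, with 7.30 and 6.95. With 1 array per group this difference between lists was not tested. In 4 of 5 pairs of enzymes that carry out a like reaction, the peroxisomal gene was lower and its mitochondrial counterpart higher. Of all genes above the floor 49.6% had a ratio below 0 and 48.4% one above, and the pairs cover only part of the lists. Crot had a ratio of −0.08 and Cpt1a, the carnitine palmitoyltransferase of mitochondrial import, 0.63. These 2 share a reaction but not a place in the pathway, since Crot acts on products that leave the peroxisome. Eci2, which comes from the list of other peroxisomal genes and also works in mitochondria, had −0.33 and Eci1 0.19. Decr2 had −0.19 and Decr1 0.11, and Acaa1a −0.14 and Acaa2 0.04. Acaa1b, the near-identical copy of Acaa1a, was not paired and was higher, at 0.17. The split between the copies is uncertain, and so is the direction of the thiolase pair. Ehhadh and Hadha were both higher, at 0.26 and 0.10. Not every gene outside the pairs followed their direction. Hsd17b4 was higher, at 0.12, and the mitochondrial genes Echs1 and Hadh were lower, at −0.24 and −0.10.

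**Figure D3:**
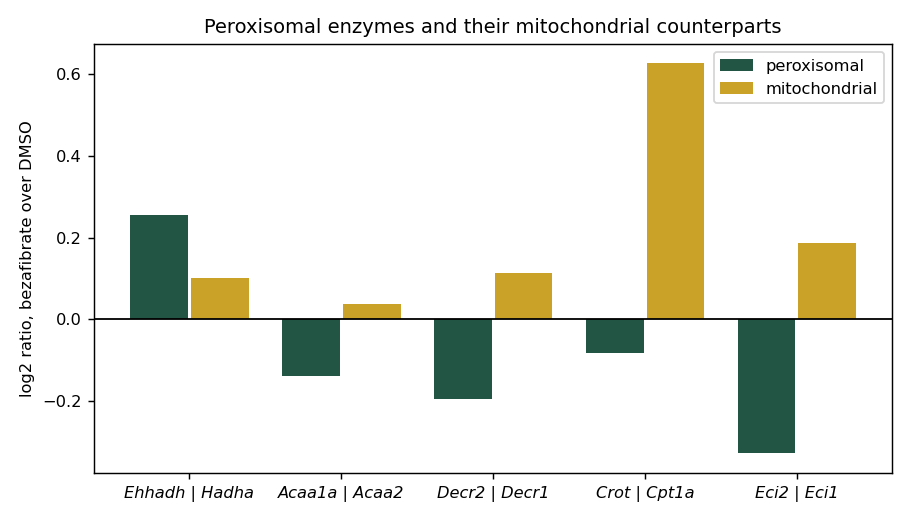
Log2 ratio of bezafibrate over DMSO for 5 peroxisomal genes (green) and the mitochondrial genes of like reaction (yellow), 1 array per group and no error bars. In 4 pairs the peroxisomal bar lies below 0 and the mitochondrial bar above it. In the pair of Ehhadh and Hadha both lie above. Acaa1b, the near-identical copy of Acaa1a with a ratio of 0.17, is not shown.

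Ratios on these arrays varied with gene length, with a Spearman's rho of 0.28 across the genes above the floor with a known length, so that short genes read lower with bezafibrate. Genes share their array, and the value is a description. Among the 29 peroxisomal genes, which all had a length, rho was 0.18. The shorter 14 had a median log2 ratio of −0.09 with 6 higher and 8 lower, and the longer 15 had −0.03 with 6 higher and 9 lower. With the median ratio of other genes of similar level and length taken off, the counts were again 12 above 0 and 17 below. The ratio of Amacr became −0.79, that of Phyh −0.41 and that of Pex16 −0.32, which before rounding falls just short of the limit. Ehhadh stayed the highest, at 0.29, followed by Acaa1b at 0.24 and Pex5 at 0.21, while Abcd3, a long gene, moved to 0.16. Pex19 and Pex14 changed sign, to 0.04 and −0.06. The plot of both ratios shows that the order of the genes at either end was largely kept.

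**Figure D4:**
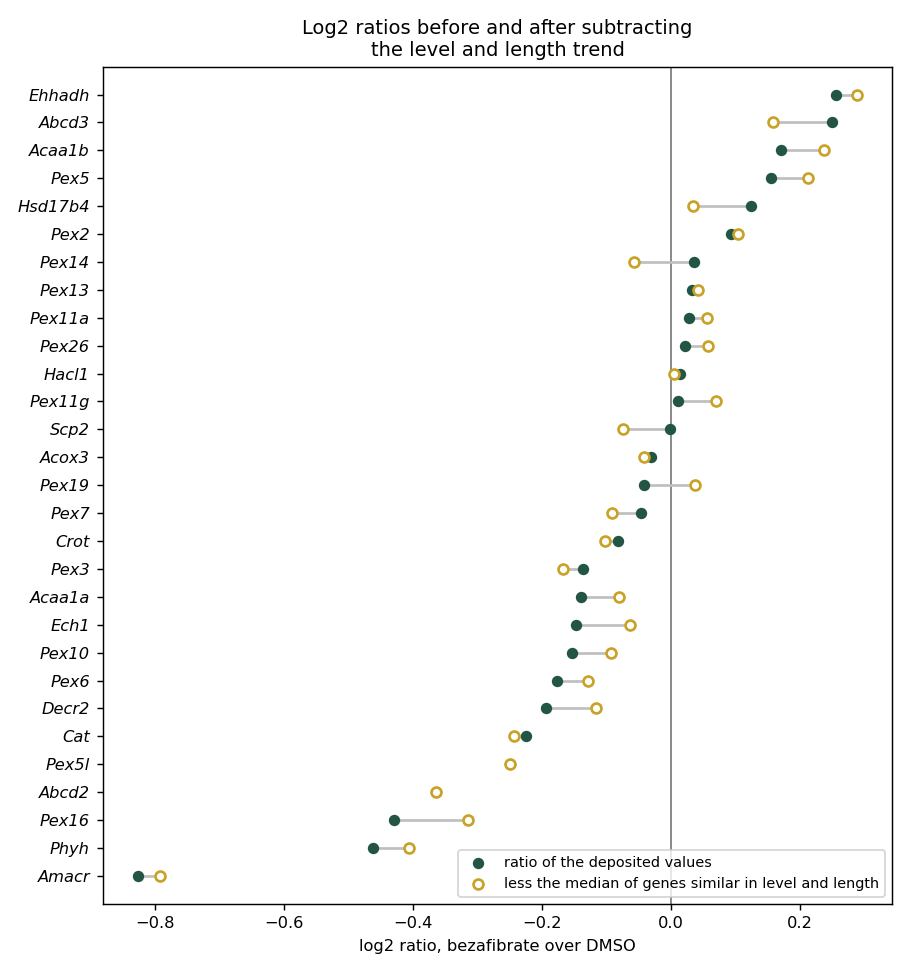
Log2 ratio of bezafibrate over DMSO for the 29 genes as deposited (filled) and less the median of genes similar in level and length (open), ordered by the deposited ratio. Amacr, Phyh, Abcd2 and Pex16 remain the 4 lowest, and Ehhadh is highest in both.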

How the data were processed

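RNA of 1 culture with bezafibrate and 1 with DMSO was amplified with a whole-transcript kit and hybridised to Affymetrix arrays, per the labels' protocols. Each deposited value is the log2 signal of a probe set. The submitters' processing notes name RMA and Affymetrix Expression Console, and the version and genome build are not given in the sources used. The log2 scale was read from the values. RMA equalises the arrays, so a change shared by most genes is removed, and it shrinks ratios of dim genes. Of 41801 probe sets 33793 had values and 23521 named 1 gene in the platform annotation; the brightest of several stood for a gene. No test was possible with 1 array per group, and the number of arrays limits the precision. Gene lengths and promoters came from RefSeq GRCm38.p6; lengths were matched for 99.8% of genes. Of equally close promoter windows the one farthest upstream was taken. The genes and lists were chosen with earlier results of these data known. Every gene above the floor was given in full, the rest by range or value, and of other lists those above background that differ by 0.32 on the log2 scale and fixed pairs. Calculations used Python 3.11.15, numpy 2.4.6, pandas 2.3.3, scipy 1.17.1, statsmodels 0.14.6 and matplotlib 3.10.9, and the fold counts were tested on simulated data.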

Additional observations from a re-analysis of the deposited data

How the results depend on the processing

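Medians of the biogenesis and oxidation genes kept their sign under every alternative. Both values changed with quantile normalization, a loess curve on level, the level and length trend and the mean in place of the median. The inclusion of shared probe sets changed the oxidation median only. The mean over a gene's probe sets and both filters on low signal left both medians as they were, and all 13 oxidation genes passed both filters. Each alternative reprocesses the same 2 arrays, so none measures the error between cultures. The biogenesis median, −0.02 as deposited, stayed between that value and 0, and its mean was −0.06; the oxidation median ran from −0.11 to −0.06 and its mean was −0.12. The transport median of −0.06 turned to 0.25 both with genes above the floor and with genes above background, since only Abcd3 was left. The count of genes at least 1.5-fold different was 1 under every alternative with that limit, and 4 at the looser limit, a log2 difference of 0.32. With probe sets averaged the ratio of Phyh was −0.23, and 3 genes passed that limit. No gene changed sign, at 2 decimals, under quantile normalization, the loess curve, the mean over probe sets or the inclusion of shared probe sets. No paired analysis was possible because each group has 1 array. Signal near background limits what can be said of Pex5l, Pex11a, Abcd2, Acaa1b and Amacr.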
